A study of Owenia fusiformis with 14 samples.

Results

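Blastulae of the annelid *Owenia fusiformis* treated with SB431542 were compared with blastulae kept in 0.4% DMSO, the solvent control of that treatment. The comparison used the 4 libraries that the sample labels place in these groups, 2 per group, of the 14 bulk RNA-seq libraries of the study. *O. fusiformis* is a marine annelid with equal spiral cleavage, and the study asked which genes depend on BMP and on Activin/Nodal signalling while the dorsoventral axis is laid down. Embryos of the SB431542 group were in 40 µM inhibitor from 3 to 6 hours post fertilisation (hpf), and those of the 0.4% DMSO group were in solvent alone over the same hours. The sample labels spell the inhibitor SB435421, whereas the treatment protocol and the methods of the study name SB431542.

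Further controls were read beside these groups. Mock-treated embryos and embryos in 0.2% DMSO were exposed from 4 to 6 hpf, as were embryos given rActivin A, labelled 75 ng/µl, or rBMP4, labelled 1000 ng/µl. Each group had 2 libraries, all collected at 6 hpf, and DMH1 was not used in the main comparisons. Each library was made from a pool of whole embryos, with no genetic change named in the labels. In whole embryos, fewer cells of a type and less RNA per cell cannot be told apart. The SB431542 and 0.4% DMSO groups differ from mock and 0.2% DMSO in the hours of treatment as well as in the solvent, and these cannot be told apart. In the methods the control of the recombinant proteins is HCl with BSA, so mock differs in the kind of solvent and 0.2% DMSO in its dose. The labels name no batch of embryos, so a difference of batch cannot be told apart either.

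Activin and Nodal are secreted ligands of the TGF-β family. They bind type II receptors and the type I receptors ALK4 and ALK7, which phosphorylate SMAD2 and SMAD3, and these enter the nucleus with SMAD4 to regulate target genes. SB431542 blocks the kinase of ALK4, ALK5 and ALK7 in vertebrates and spares the BMP type I receptors, which act through SMAD1/5/8. In many animals Nodal and Activin act on the embryonic axes and on the germ layers. The deposited identifiers of nodal, activin, their receptors and smad2/3 are not paired with names in the sources used here, so these genes were not analysed. Names were available for 6 genes of the BMP pathway.

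The SB431542 libraries held 17791394 and 22732933 estimated counts and the 0.4% DMSO libraries 20813815 and 16316525, within a range of 9416790 to 59916462 over all libraries. Counts of 31977 transcripts were summed to 27040 genes. SB431542 and 0.4% DMSO libraries lay close together. As the root mean square difference of log2 CPM (counts scaled to the library size) over genes, the SB431542 replicates differed by 0.55 and the 0.4% DMSO replicates by 0.6. Between the groups the distance was 0.62 to 0.68. SB431542 lay much farther from mock (1.13 to 1.18) and from 0.2% DMSO (1 to 1.05), and so did 0.4% DMSO (1.08 to 1.19 and 0.94 to 1.06).

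Few genes changed with SB431542, and more of them fell than rose. Of 20463 genes tested, 128 were called, 44 higher and 84 lower, by edgeR's quasi-likelihood test at a Benjamini-Hochberg adjusted p below 0.05 and a change of at least 2-fold. Among the 44, OFUSG20168 and OFUSG20173 had the same level in every library read here, so they may not be separate observations. The share called was 0.626% of genes, with 0.215% higher and 0.41% lower. Another 151 genes passed the adjusted p with a smaller change. At an unadjusted p below 0.05 there were 1614 genes. The median absolute difference over all genes, 0.17 on the log2 scale, shows how little most genes moved. Without SB431542 replicate 1 the count was 81 and without SB431542 replicate 2 it was 79, and 59 genes, 15 higher and 44 lower, were called in each of the 4 fits that left out a library of either group. When the 0.2% DMSO libraries were added to the fit, 67 of the 128 genes were called and no others. Nothing in the sources says whether the replicates are separate fertilisations, so the p-values measure only the spread between these libraries. An exact permutation test of 2 against 2 libraries cannot go below 0.333.

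**Figure D1:**
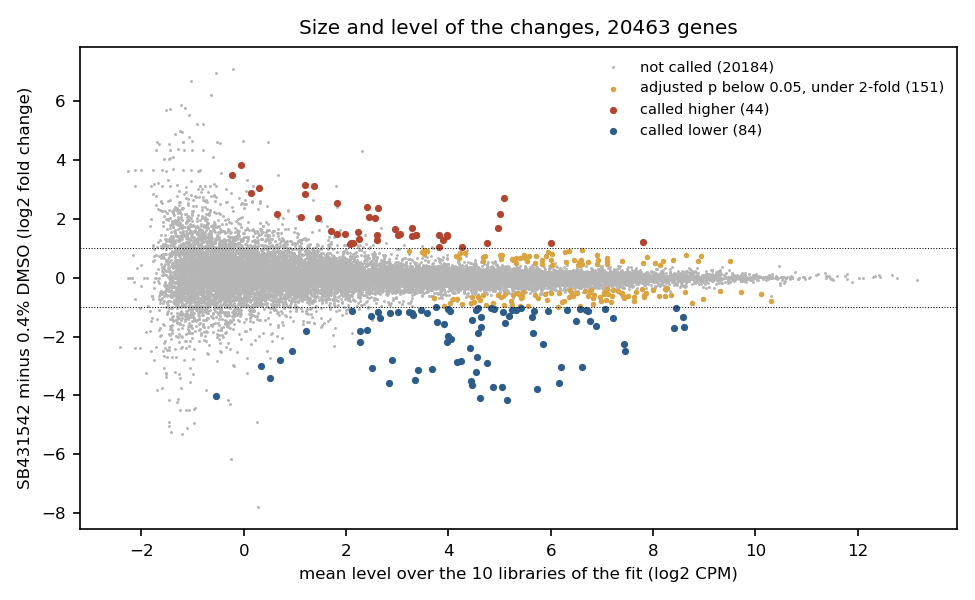
Difference between SB431542 and 0.4% DMSO (vertical axis, log2 fold change) against the mean level of each gene over the 10 libraries of the fit (horizontal axis, log2 CPM). The 44 genes called higher and the 84 called lower lie outside the dotted lines at 2-fold, and the 151 genes that passed the adjusted p with a smaller change lie between them.

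The changes were mostly moderate in size, with a longer tail among the lower genes. The median change was 1.52 on the log2 scale for the higher genes and -1.67 for the lower genes. Between 1 and 1.5 on the log2 scale lay 22 higher and 39 lower genes. At 8-fold or more (3 on the log2 scale) lay 5 higher and 18 lower genes. The 18 included OFUSG18404, OFUSG18408, OFUSG18410, OFUSG18411, OFUSG18412, OFUSG18413 and OFUSG18416, whose identifiers are close in number. Whether these genes changed separately was not tested. The largest change among called genes was 3.81 upwards and -4.17 downwards.

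Levels were compared between genes as TPM, which is scaled for transcript length. Averaged over the 4 libraries, the median TPM was 4.29 for the higher genes, 6.91 for the lower genes and 5.69 for all genes tested. Within a group the medians also carry the direction by which the genes were chosen. In 0.4% DMSO the median TPM was 1.82 for the higher genes, 10 for the lower genes and 5.72 for all genes tested. In SB431542 the medians were 6.48, 2.94 and 5.62. The calls were densest at middle levels. By mean TPM over the 4 libraries, 0.298% of the 5026 genes below 1 TPM were called, 0.983% of the 4781 genes from 1 to 5 TPM and 0.926% of the 4857 genes from 5 to 20 TPM. The share was 0.382% among the 4452 genes from 20 to 100 TPM and 0.297% among the 1347 genes above. Lower genes outnumbered higher genes from 1 to 5 TPM (31 against 16), from 5 to 20 TPM (32 against 13) and from 20 to 100 TPM (13 against 4), while below 1 TPM there were 9 higher and 6 lower. Genes that passed the adjusted p with a change under 2-fold numbered 0 below 1 TPM, 16 from 1 to 5 TPM, 49 from 5 to 20 TPM, 70 from 20 to 100 TPM and 16 above. The longest transcript had a median of 2332 bases in the higher and 2378 bases in the lower genes, and 1827 bases over all genes tested. More than 1 transcript was listed for 11.4% of the higher, 25% of the lower and 15.9% of all genes tested.

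The change was small against the difference from the other controls. SB431542 differed from mock in 4502 genes (22% of those tested), 2151 higher (10.5%) and 2351 lower (11.5%). The solvent control differed from mock almost as often, in 4181 genes (20.4%), with 1884 higher (9.21%) and 2297 lower (11.2%). Against 0.2% DMSO, in a fit of 12 libraries with 20902 genes tested, SB431542 differed in 1764 genes (8.44%; 1003 or 4.8% higher and 761 or 3.64% lower). The same fit gave 1531 genes (7.32%; 884 or 4.23% higher and 647 or 3.1% lower) between 0.4% and 0.2% DMSO. The controls also differed among themselves, with 2618 genes (12.5%) between mock and 0.2% DMSO, 1517 (7.26%) higher in mock and 1101 (5.27%) lower. The counts against 0.2% DMSO depended on the libraries in the fit and also changed when a library was left out. With only the 4 libraries compared they were 1173 for SB431542 and 867 for 0.4% DMSO. These comparisons share libraries with one another and are set side by side only.

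**Figure D2:**
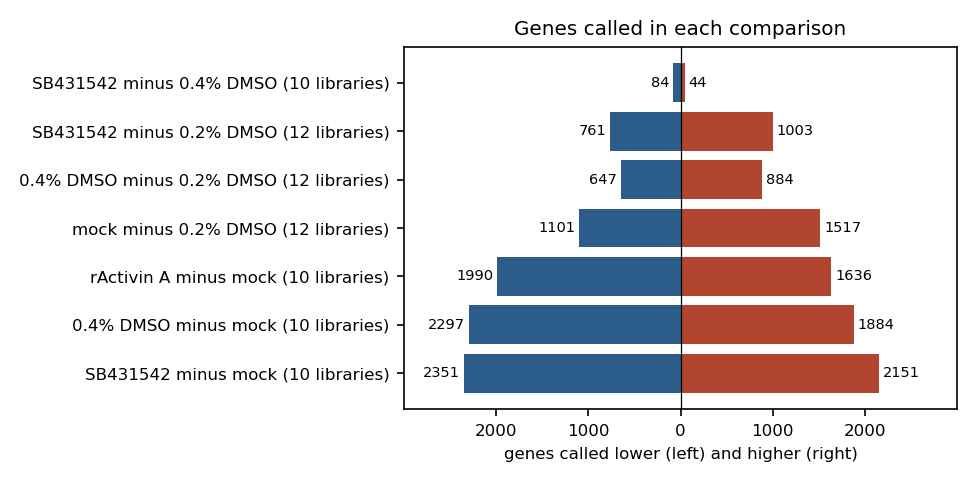
Number of genes called lower (left bars) and higher (right bars) in each comparison, with the number of libraries in the fit. SB431542 against 0.4% DMSO gave 84 and 44 genes, whereas each comparison with mock or 0.2% DMSO gave at least 647 in either direction.

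The same scale appears per gene. Between the 2 SB431542 libraries the median absolute difference of log2(CPM + 0.5) was 0.148, and 0.889% of genes differed by 2-fold or more. Between the 0.4% DMSO libraries these values were 0.199 and 1.33%. The SB431542 and 0.4% DMSO means differed by a median of 0.148 and by 2-fold or more in 1.28% of genes. Against mock the SB431542 mean differed by a median of 0.514, with 19.7% of genes at 2-fold or more, and the 0.4% DMSO mean by 0.502, with 18.3%. A mean of 2 libraries varies less than a single library, so the differences between means and between replicates are set side by side only.

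Of the 84 genes that fell with SB431542, 47 were already lower in the solvent control than in mock, beside 11.2% of all genes. Another 8 were called higher there, beside 9.21% of all genes, and 29 were not called. Their median level was 39.8 and 36.1 CPM in the mock libraries, 16.1 and 14.5 CPM in 0.4% DMSO, and 3.87 and 4.15 CPM in SB431542. The group means ran from mock down through 0.4% DMSO to SB431542 in 66 of the 84 genes (78.6%) and in 25.7% of all genes tested. Against mock, SB431542 was lower in 74 of the 84 genes and higher in none, with a median of -2.89 on the log2 scale, beside 11.5% of all genes called lower. The median of 0.4% DMSO minus mock was -1.15. These values share the SB431542 and 0.4% DMSO libraries that chose the genes and are a description.

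The 0.2% DMSO libraries were not used in choosing the genes, and the 84 genes stood uneven between them. Their median level was 17.1 CPM in 0.2% DMSO replicate 1 and 7.77 CPM in replicate 2, so replicate 1 lay near 0.4% DMSO and replicate 2 between 0.4% DMSO and SB431542. In 38 of the 84 genes (45.2%) replicate 2 was at least 2-fold lower than replicate 1, beside 4.34% of all genes tested. The opposite held for 2 of the 84 (2.38%), beside 3.27% of all genes. In either direction 40 of the 84 (47.6%) differed by 2-fold, beside 7.61% of all genes. Between replicates of the groups whose libraries entered the fit that called the genes, 2-fold differences in either direction were found in none of the 84 genes in mock (0.709% of all genes), none in rBMP4 (1.31%), none in 0.4% DMSO (1.33%), 4 in SB431542 (0.889%) and 6 in rActivin A (10.6%). SB431542 replicate 1 was at least 2-fold below 0.2% DMSO replicate 1 in 64 of the 84 genes (median -1.7 on the log2 scale), beside 5.33% of all genes, and below 0.2% DMSO replicate 2 in 34 (median -0.82), beside 5.32%. For SB431542 replicate 2 the numbers were 60, beside 5.26%, and 34, beside 5.58%. The part of this unevenness between control embryos in the result was not tested.

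The test against 0.2% DMSO called 48 of the 84 genes lower, beside 3.64% of all genes, and 0.4% DMSO was lower than 0.2% DMSO in none of them (beside 3.1% of all genes) and higher in 12 (beside 4.23%). Fewer of the 84 genes were called lower without 0.2% DMSO replicate 1 than without replicate 2, whereas the share over all genes was slightly larger. Mock was higher than 0.2% DMSO in 60 of the 84 genes and lower in none, beside 7.26% of all genes called higher, with a median of 1.41 on the log2 scale. More of the 84 were called higher in mock without 0.2% DMSO replicate 1 than without replicate 2, and the share over all genes was larger too. That comparison shares no library with SB431542 against 0.4% DMSO, although the mock libraries were in the joint fit that called the genes. Both SB431542 libraries lay below all 4 mock and 0.2% DMSO libraries in 55 of the 84 genes (65.5%), beside 21.5% of all genes tested. The SB431542 and 0.4% DMSO libraries chose these 84 genes. All values for them that use either group, also those against 0.2% DMSO, are therefore a description.

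**Figure D3:**
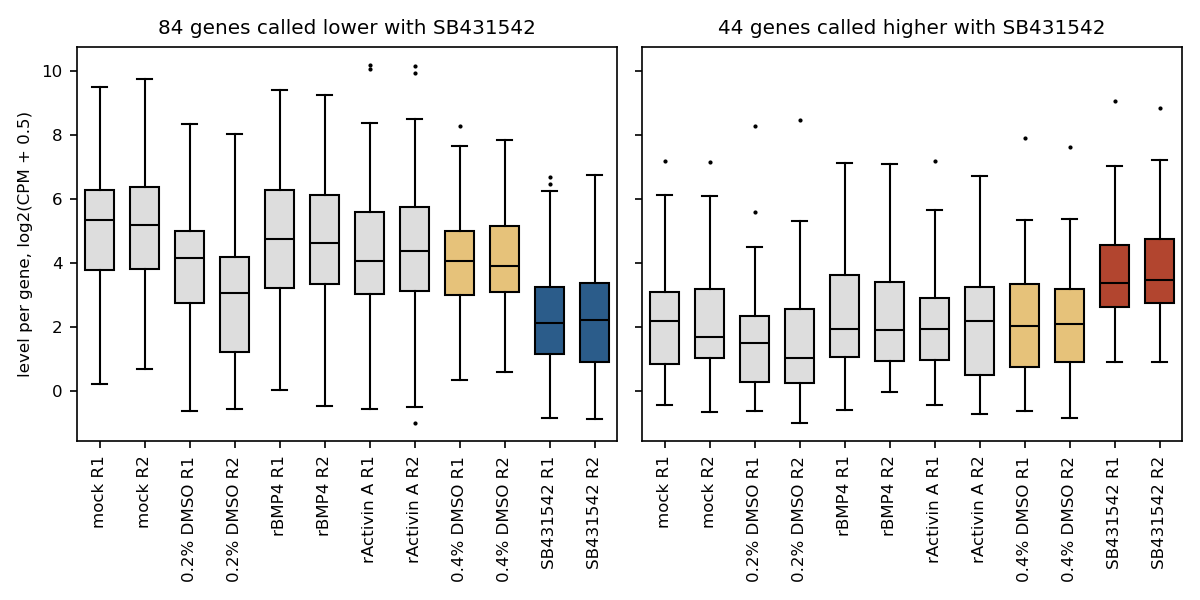
Levels of the called genes in each library, as log2(CPM + 0.5), for the 84 genes called lower (left) and the 44 called higher (right) with SB431542; boxes span the quartiles with the median as a line, whiskers reach the last gene within 1.5 times the box length, and dots lie beyond. Among the lower genes mock is highest, 0.2% DMSO replicate 2 lies below replicate 1, and the SB431542 libraries are lowest; among the higher genes the medians of all other libraries lie below those of SB431542.

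For the 44 genes that rose, the median levels of 0.4% DMSO and mock lay closer together. Their median level was 9.95 and 10.5 CPM in SB431542 and 3.55 and 3.76 CPM in 0.4% DMSO. In mock it was 4.06 and 2.75 CPM, and in 0.2% DMSO 2.36 and 1.57 CPM. The medians of the controls thus ranged from 1.57 to 4.06 CPM, with SB431542 above them. The controls also differed among themselves in these genes. Of the 44, 0.4% DMSO was called lower than mock in 15 (beside 11.2% of all genes), higher in 9 (beside 9.21%) and not called in 20, and mock was higher than 0.2% DMSO in 14 (beside 7.26%) and lower in 4 (beside 5.27%). SB431542 was higher than mock in 27 (beside 10.5%) and lower in 4 (beside 11.5%), with a median of 1.66 on the log2 scale. Against 0.2% DMSO it was higher in 36 and lower in none, with a median of 2.16, beside 4.8% of all genes. Both SB431542 libraries lay above all 4 mock and 0.2% DMSO libraries in 35 of the 44 genes (79.5%), beside 21.1% of all genes tested. The SB431542 and 0.4% DMSO libraries chose these genes, so the values that use either of them are a description.

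Embryos given rActivin A, a ligand of the same receptors, were read for the same genes. This comparison with mock shares no library with SB431542 against 0.4% DMSO. The mock and rActivin A libraries were, however, in the joint fit that called the genes, so it is not independent of the calls. Of the 84 genes that fell with SB431542, rActivin A was lower than mock in 30 and higher in 9, with a median of -0.67 on the log2 scale, beside 9.72% of all genes called lower and 7.99% called higher. Fewer of the 84 were called lower without rActivin A replicate 1 than without replicate 2, whereas the share over all genes was slightly larger. Of the 44 genes that rose with SB431542, rActivin A was lower than mock in 10 and higher in 5, with a median of -0.11. Among the lower genes, more were thus called in the same direction in both comparisons than in opposite directions. Their median level was 16.2 and 20 CPM in rActivin A, 39.8 and 36.1 CPM in mock and 16.1 and 14.5 CPM in 0.4% DMSO. In 0.2% DMSO it was 17.1 and 7.77 CPM. The rActivin A medians thus lay closer to 0.4% DMSO than to mock. Mock enters the comparison of rActivin A with mock and that of mock with 0.2% DMSO, in which 60 of the same genes were higher in mock. Whether the 30 calls reflect rActivin A or the level of mock was not tested.

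Among the 6 named genes of the BMP pathway none was called. *bmp2/4* (OFUSG12159), a ligand of the pathway, stood at 99.3 and 103 CPM in SB431542 and at 79.4 and 75.6 CPM in 0.4% DMSO. Mock held 78.9 and 79.2 CPM and 0.2% DMSO 84.4 and 79.2 CPM. Both SB431542 libraries were above all 6 control libraries, by 0.41 ± 0.114 (SE) on the log2 scale against 0.4% DMSO (adjusted p = 0.118, edgeR's quasi-likelihood test). With rActivin A it stood at 31.6 and 31.9 CPM, far below the controls. *bmp5-8* (OFUSG23310), another ligand, was at 119 and 122 CPM in SB431542 and 112 and 122 CPM in 0.4% DMSO, and the groups overlapped.

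*chordin* (OFUSG13105), a secreted antagonist that binds BMP ligands, was at 418 and 448 CPM in SB431542 and 540 and 560 CPM in 0.4% DMSO. It was highest in mock, at 905 and 911 CPM, and stood at 550 and 464 CPM in 0.2% DMSO. The SB431542 libraries lay below all control libraries. Their difference from 0.4% DMSO was -0.32 ± 0.0857 (SE) on the log2 scale (adjusted p = 0.0911, edgeR's quasi-likelihood test). With DESeq2 it was -0.334 with an adjusted p of 0.0145, still under the 2-fold minimum of a call. Most of the distance to mock was already present in the solvent control, -0.72 for 0.4% DMSO against -1.05 for SB431542. With rActivin A *chordin* stood at 231 and 213 CPM, -2.03 below mock on the log2 scale.

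No difference in the receptor genes was detected between SB431542 and 0.4% DMSO. *bmpr1* (OFUSG18180), the type I receptor, was at 117 and 107 CPM in SB431542 and 135 and 97 CPM in 0.4% DMSO, a difference of -0.02 ± 0.149 (SE) whose sign depended on the library left out. *bmpr2* (OFUSG26337), the type II receptor, was at 41.2 and 40.4 CPM in SB431542, 41.1 and 39.7 CPM in 0.4% DMSO and 62 and 63.4 CPM in mock. For *bmpr2* the step lay between mock and 0.4% DMSO (-0.63 on the log2 scale) and none was seen between 0.4% DMSO and SB431542 (0.04 ± 0.107, SE). *smad1/5/8* (OFUSG02732), which carries the BMP signal to the nucleus, was at 431 and 414 CPM in SB431542 and 373 and 311 CPM in 0.4% DMSO. That difference of 0.33 ± 0.0926 (SE) did not pass the test (adjusted p = 0.128, edgeR's quasi-likelihood test), and mock, at 425 and 406 CPM, lay at the SB431542 level.

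The largest changes at 10 or more counts per library were found in genes without a name in the sources. OFUSG04867 was at 1 and 1.24 CPM in SB431542 and at 18 and 23.7 CPM in 0.4% DMSO. Mock held 40.7 and 34.4 CPM and rActivin A 49.5 and 49.9 CPM, whereas 0.2% DMSO was split, with 20.3 CPM in replicate 1 and 0.522 CPM in replicate 2. One control library thus lay below the treated libraries. SB431542 minus 0.4% DMSO was -4.17 ± 0.217 (SE) on the log2 scale (adjusted p = 1.79e-09, edgeR's quasi-likelihood test, Benjamini-Hochberg). When all 14 libraries entered the fit, the adjusted p was 0.0349.

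OFUSG18412 was at 1.5 and 0.353 CPM in SB431542 and 15.5 and 14.7 CPM in 0.4% DMSO. Mock held 47.3 and 54.5 CPM, rActivin A 22.1 and 31.6 CPM and 0.2% DMSO 17.6 and 7.57 CPM. The SB431542 libraries lay below every other library read here, with a difference from 0.4% DMSO of -4.08 ± 0.327 (SE) on the log2 scale (adjusted p = 4.79e-07, edgeR's quasi-likelihood test). The step from mock to 0.4% DMSO was -1.75. Its means thus ran from mock through 0.4% DMSO to SB431542, as in most of the lower set. The 0.2% DMSO mean was not above 0.4% DMSO, with 0.4% minus 0.2% DMSO at 0.27 on the log2 scale.

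The most raised genes were at low levels. OFUSG18221 had 36 and 43 counts in SB431542 (2.01 and 1.9 CPM) and 4 and 1 counts in 0.4% DMSO. Mock held 0.851 and 0.485 CPM and 0.2% DMSO 0.82 and 0.435 CPM, between the other groups. The difference from 0.4% DMSO was 3.81 ± 0.702 (SE) on the log2 scale (adjusted p = 0.00618, edgeR's quasi-likelihood test) and that from mock was 1.55. Without SB431542 replicate 1, SB431542 replicate 2 or 0.4% DMSO replicate 2 the gene was no longer called (adjusted p = 0.0634, 0.0688 and 0.105, edgeR).

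OFUSG04584 had 33 and 55 counts in SB431542 (1.84 and 2.43 CPM) and 5 and 2 counts in 0.4% DMSO. All mock and 0.2% DMSO libraries were at or below 0.348 CPM, and rActivin A was split at 0.241 and 1.34 CPM. SB431542 stood above every other library read here, by 3.47 ± 0.8 (SE) on the log2 scale against 0.4% DMSO (adjusted p = 0.0359, edgeR's quasi-likelihood test). The call was lost on leaving out any of the 4 libraries. It was also lost with all 14 libraries and with a replicate block (adjusted p = 0.0856 and 0.0653, edgeR).

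**Figure D4:**
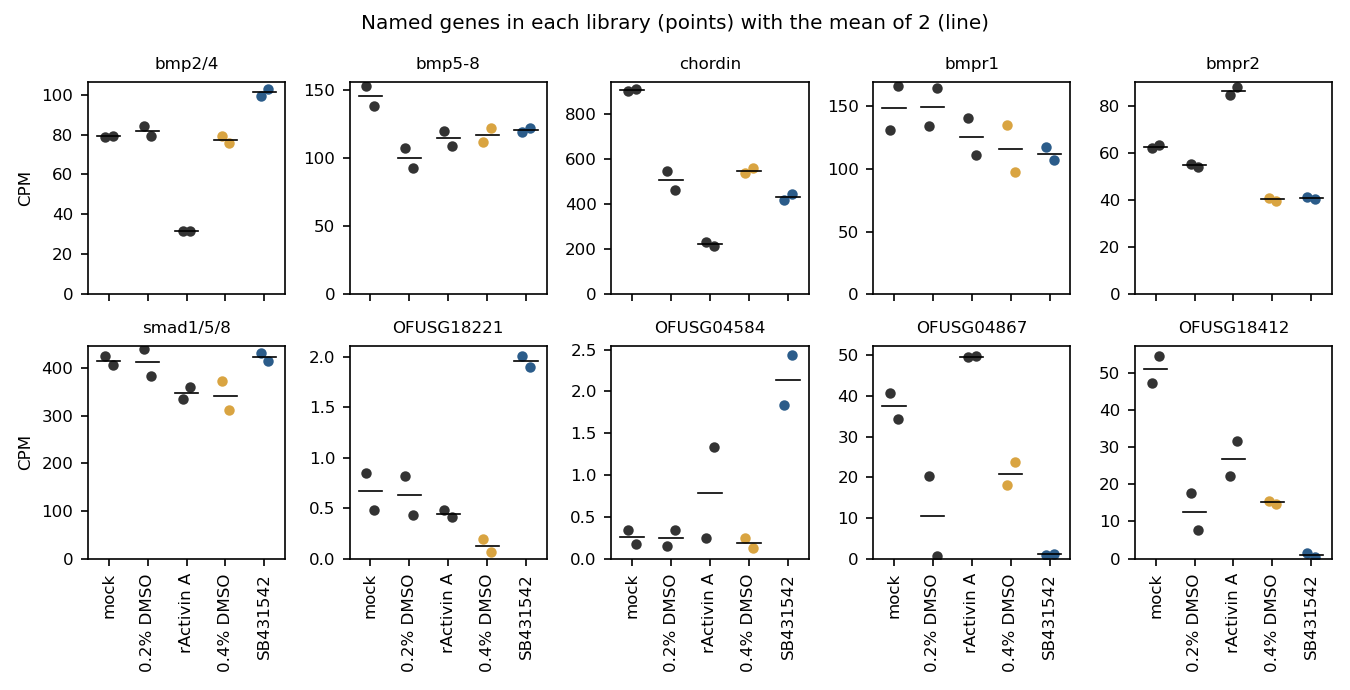
CPM of the 6 named BMP pathway genes and of the 4 genes with the largest changes in each library of 5 groups (points), with the mean of the 2 libraries (line) and vertical axes from 0. SB431542 and 0.4% DMSO lie close in the BMP genes, and 0.2% DMSO replicate 2 of OFUSG04867 lies at 0.522 CPM, at the level of SB431542.

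In the edgeR fit fewer transcripts than genes were called, and the calls were in part of another kind. The order depended on the test, since DESeq2 called 199 transcripts and 136 genes. Of 23432 transcripts tested, edgeR called 86 (0.367%), 23 higher and 63 lower, from 84 genes, and 1685 had an unadjusted p below 0.05. Without SB431542 replicate 2 the count was 56. For 69 of the 86 transcripts the gene sum was called in the same direction, among them all 53 transcripts of genes that list a single transcript. Of the 128 genes called as sums, 61 had no transcript called. Each of these 61 held a transcript at least 2-fold changed in the same direction, and 49 of them list a single transcript. The median adjusted p of their best transcript was 0.158 (edgeR).

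The other 17 transcripts, 9 higher and 8 lower, belong to genes whose sum was not called, and for 16 of them the gene sum differed by less than 0.5 on the log2 scale. Kallisto splits reads shared by isoforms among those isoforms, so values of such transcripts are less certain than gene sums. OFUSG07853.1 was assigned 4 and 0 counts in SB431542 and 357 and 619 in 0.4% DMSO, but 0 and 1 in mock and 0 and 6 in 0.2% DMSO. The 0.4% DMSO libraries were the ones apart. The transcript took 38.7% and 81.2% of the TPM of its gene there and at most 0.726% in the mock, 0.2% DMSO and SB431542 libraries, while the gene sum differed by -0.26 on the log2 scale between SB431542 and 0.4% DMSO. The call (adjusted p = 0.0331, edgeR's quasi-likelihood test) was lost on leaving out any of the 4 libraries. It was also lost with all 14 libraries and with a replicate block (adjusted p = 0.374 and 0.104, edgeR). With DESeq2 the adjusted p was 0.707.

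OFUSG07415.1 had 47 and 52 counts in SB431542 and none in either 0.4% DMSO library, at least 29.5-fold higher by a floor of 3 counts over the group (adjusted p = 0.00398, edgeR's quasi-likelihood test). Mock had 164 and 147 counts and 0.2% DMSO 76 and 88. Both rActivin A libraries also had 0 counts, so 0.4% DMSO was not alone in lacking the transcript. The call was lost with only the 4 libraries compared and with all 14 in the fit (adjusted p = 0.0586 and 0.513, edgeR). The other transcript of the gene took nearly all of its TPM in 0.4% DMSO, and the gene sum differed by -0.24 on the log2 scale.

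OFUSG24245.1 had no counts in either SB431542 library and 63 and 45 in 0.4% DMSO, at least 39.2-fold lower by the same floor (adjusted p = 0.019, edgeR's quasi-likelihood test). Mock had 32 and 24 counts, and 0.2% DMSO had 44 in replicate 1 and none in replicate 2. Both rActivin A libraries had 0 counts too. Libraries outside the SB431542 group thus also lacked the transcript, and the gene sum differed by -0.22. The call was lost on leaving out any of the 4 libraries. It was also lost with all 14 libraries and with a replicate block (adjusted p = 0.35 and 0.0606, edgeR). OFUSG16920.1 had 54 and 213 counts in SB431542 and 0 and 1 in 0.4% DMSO. Mock had 64 and 197 counts, and 0.2% DMSO had 0 and 195, so the values differed widely between replicates too. The call (adjusted p = 0.0314, edgeR's quasi-likelihood test) was lost without SB431542 replicate 2 or either 0.4% DMSO library. It was also lost with only the 4 libraries compared and with all 14 in the fit (adjusted p = 0.0907 and 0.702, edgeR). The transcript held 3.23% and 10.2% of the TPM of its gene in SB431542 and at most 6.75% in the control libraries.

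**Figure D5:**
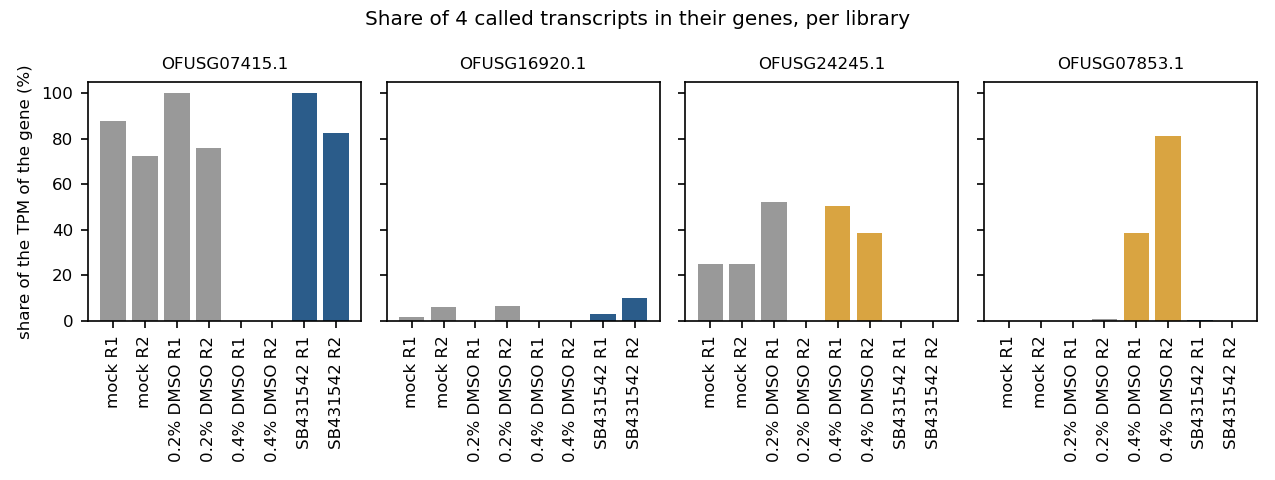
Share of the TPM of its gene (vertical axis, percent) taken by each of 4 called transcripts whose gene sum was not called, in the mock, 0.2% DMSO, 0.4% DMSO and SB431542 libraries. For OFUSG07415.1 and OFUSG07853.1 the 0.4% DMSO libraries differ from the other libraries plotted, and OFUSG24245.1 is absent from 0.2% DMSO replicate 2 as well as from SB431542.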

How the data were processed

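The authors extracted RNA from pooled embryos, sequenced stranded mRNA libraries in paired-end mode and assigned reads to annotated transcripts with Kallisto (version 0.46.2 in the submitters' processing notes). They deposited estimated counts and TPM per transcript for each library. The estimated counts are not normalized; TPM is scaled for transcript length and to a fixed total. DESeq2 (1.26.0) is noted for the authors' own comparisons, which were not used. Whether counting used strand was not stated in the methods or labels.

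Estimated counts of the 31977 transcripts shared by all files were kept per transcript or summed per gene (the identifier before the dot) and rounded. Not-shared transcripts held at most 0.00365% of a library. edgeR (4.0.16, R 4.3.3) was used with filterByExpr, TMM and the quasi-likelihood test with Benjamini-Hochberg adjustment, in a joint fit of the 10 mock, rBMP4, rActivin A, 0.4% DMSO and SB431542 libraries (5 residual degrees of freedom). The 12-library fit added 0.2% DMSO. Calls required an adjusted p below 0.05 and 1 on the log2 scale. CPM values were scaled by TMM in the 12-library fit. The test was also run on simulated counts. In these the controls did not differ and no gene or transcript at a low level was changed, so detection at such levels was not measured.

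Genes named were the 6 with names in the sources, and the 2 highest and 2 lowest by fold change among called genes without overlap and with at least 10 counts in every library of the higher group. The same rule was used for transcripts of genes with several transcripts and no call for the sum. Members and lists were chosen with earlier results of these data known.

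Alternatives were DESeq2 (1.42.0), its size factors, no filter, other sets of libraries, a replicate block, thinning, other fold minimums and a length offset.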

Additional observations from a re-analysis of the deposited data

How the results depend on the processing

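For SB431542 against 0.4% DMSO, the 128 genes became 279 with no fold minimum, 253 with a minimum of 0.5 on the log2 scale and 67 in the 12-library fit, which was added after seeing the data, as were the fits without a mock or rBMP4 library and the counts of called genes without a 0.2% DMSO or rActivin A library. Leaving out a library gave 79 to 180 genes, 79 to 98 when it was one of the 4 compared and the higher values without an rActivin A library. Under the other settings the count was 87 (all 14 libraries) to 180 (no filter), and 49 genes were called under all 22 settings. DESeq2 called 136. The 86 transcripts became 199 with DESeq2, 40 with all 14 libraries, 130 with no fold minimum and 37 in the 12-library fit, with 56 to 125 when a library was left out. With only the 4 libraries compared the share of lower calls was 56.9% for genes and 64.6% for transcripts, against 65.6% and 73.3%. Against 0.2% DMSO, SB431542 gave 1173 genes and 0.4% DMSO 867 with only the 4 libraries compared, and leaving out a library gave 872 to 2150 and 654 to 2000. The cause of these changes was not tested. Comparisons with mock stayed within 1.5 times their counts.

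Deviations of same-numbered SB431542 and 0.4% DMSO libraries were hardly correlated over genes (r = 0.0346), so the numbers were not taken to pair the samples. With a replicate block 123 genes and 62 transcripts were called. No call reversed. Among the BMP genes not called, the difference changed sign for *bmpr1* (0.215 without 0.4% DMSO replicate 1 and 0.03 without SB431542 replicate 2), *bmp5-8* (-0.011 without 0.4% DMSO replicate 1) and *bmpr2* (-0.019 without 0.4% DMSO replicate 2). Calls of single genes were lost in 29 instances, all among the raised genes and the transcripts of uncalled genes. Below 1 TPM 0.298% of genes were called, and detection at that level was not tested.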
